A study of Mus musculus with 32 samples.

Results

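The CXC chemokines followed here are 10 secreted or membrane-bound signalling proteins named on the array as Cxcl1, Cxcl2, Cxcl5, Cxcl9, Cxcl10, Cxcl11, Cxcl12, Cxcl13, Cxcl14 and Cxcl16. They were taken by an exact match of the array's gene name. All 10 were measured and passed the filter on dim probes, among 19248 gene names tested. Their transcripts were followed in liver from 6 groups of mice. Wild-type mice carried E2F1+/+ on a strain labelled B6x126 F2, and knockout mice carried E2F1-/- on a strain whose label joins B6, 129 and E2F1-/-. Mice received saline or lipopolysaccharide (LPS, the cell-wall component of Gram-negative bacteria that starts an innate immune response) systemically. The saline groups held 6 wild-type and 6 knockout samples, the groups at 6 h after LPS 4 and 4, and those at 20 h after LPS 6 and 6. The saline groups are labelled with 20 h, so the samples at 6 h differ from saline in time as well as in treatment. The sources used here do not give age, sex or dose. The strain labels of the 2 genotypes differ, so genotype and strain background cannot be told apart.

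CXC chemokines are small proteins that guide leukocytes along a gradient. Cxcl1, Cxcl2 and Cxcl5 signal through Cxcr2 and draw neutrophils into inflamed tissue. Cxcl9, Cxcl10 and Cxcl11 are induced by interferons and act through Cxcr3 on activated T cells and natural killer cells. Cxcl12, Cxcl13, Cxcl14 and Cxcl16 are more often regarded as homeostatic: Cxcl12 retains and recruits cells through Cxcr4, Cxcl13 attracts B cells through Cxcr5, and Cxcl16 is a transmembrane ligand of Cxcr6. In the liver, Kupffer cells, endothelium, stellate cells and hepatocytes can all make some of these ligands after LPS. Whole liver was measured, so fewer cells of a type and less RNA per cell cannot be told apart.

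All levels below are log2 signals minus the 75th percentile of the array, so 0 is the level that 25% of spots exceed, and a difference of 1 is a doubling. The arrays' 75th percentiles ran from 282 to 1138 signal units, and each array had 20203 to 28891 spots well above background. Hepatocyte markers (9 measured, albumin among them) summed to between 1830 and 6030 times the 75th percentile in every array. The 3 lung markers that were measured summed to 0.069 to 0.282 times it in wild-type saline arrays and to at most 2.44 times it in any array; the extraction protocol in the labels names lung, while the tissue label is liver. E2f1 itself, read at its array probe, ranged from -5.05 to -2.30 in wild-type and from -4.55 to -2.40 in knockout saline arrays, and at 20 h from -6.21 to -4.03 and from -4.04 to -0.23. The probe signal was thus not lower in the knockout groups. Where the deletion lies was not known here. A probe outside it would check nothing, and the groups below are those of the labels.

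A pair of libraries stood apart from their groups. The library labelled KO saline replicate 1 lay outside the range of the other 5 knockout saline arrays for all 10 chemokines, above it for 9 and below it for Cxcl12. The library labelled KO LPS 6 h replicate 1 lay outside the other 3 arrays of its group for all 10, below for 9 and above for Cxcl12. Cxcl10, for example, was 7.75 in the former, where the remaining 5 saline arrays of that genotype ran from -1.23 to 0.77, and 1.4 in the latter, where the remaining 3 ran from 6.33 to 8.24. The summed signal of 15 neutrophil markers was 555 and 31.8 times the 75th percentile in these libraries; the remaining knockout saline arrays had 2.98 to 9.76. Both were hybridised on 1 slide and read on 1 scan date. Knockout results below are given with all arrays and without this pair. The pair stands apart in these same 10 chemokines, so leaving it out can by itself widen their LPS changes and narrow the spread. The p-values without the pair are therefore no independent test of these genes.

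**Figure D1:**
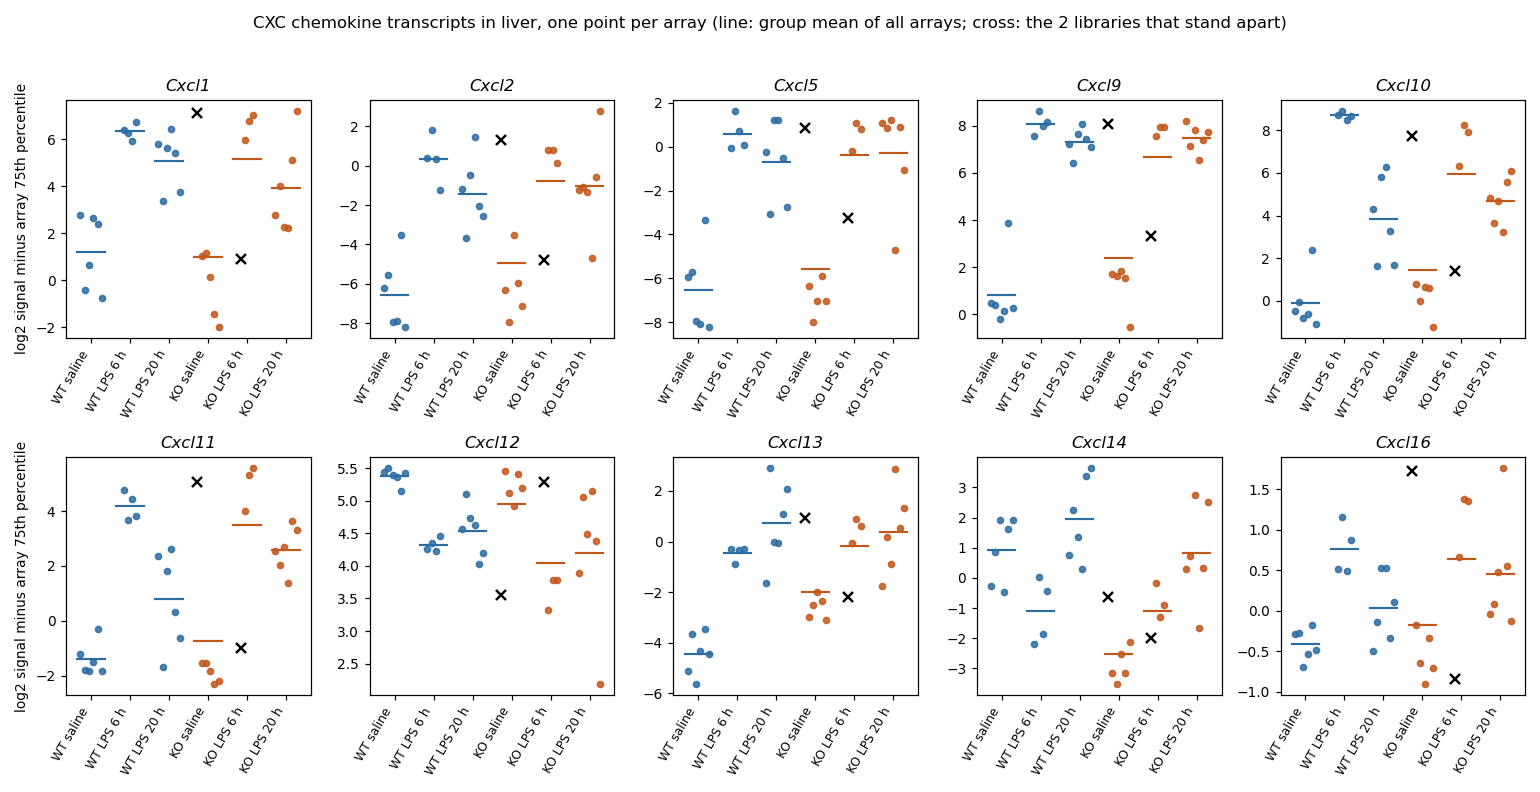
Level of each of the 10 chemokines in each of the 32 arrays (log2 signal minus the array's 75th percentile), by group; points are arrays, lines are group means over all arrays, and crosses mark the 2 libraries that stand apart. Cxcl10 sits between 8.51 and 8.91 at 6 h of LPS in wild type and spreads from 1.61 to 6.26 at 20 h, while the crosses lie outside the other arrays of their groups in every panel.

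The sequences just upstream of 4 genes are shown because these genes were called higher at 6 h of LPS in wild type and fall into the 2 inducible families. They are the 250 bases before the annotated start in RefSeq on GRCm38.p6, read 5′ to 3′ in the direction of the gene, with capitals marking matches to the NF-kB consensus site or to the interferon element core GAAANNGAA. The promoter table held 7 of the 10 chemokines.
Cxcl1, chr5:90890995-90891244, plus strand: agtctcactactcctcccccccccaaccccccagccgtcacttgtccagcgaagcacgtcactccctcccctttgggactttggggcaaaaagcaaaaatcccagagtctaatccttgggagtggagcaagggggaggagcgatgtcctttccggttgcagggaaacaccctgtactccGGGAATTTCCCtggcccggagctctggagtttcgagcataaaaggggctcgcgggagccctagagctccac
Cxcl2, chr5:90903649-90903898, plus strand: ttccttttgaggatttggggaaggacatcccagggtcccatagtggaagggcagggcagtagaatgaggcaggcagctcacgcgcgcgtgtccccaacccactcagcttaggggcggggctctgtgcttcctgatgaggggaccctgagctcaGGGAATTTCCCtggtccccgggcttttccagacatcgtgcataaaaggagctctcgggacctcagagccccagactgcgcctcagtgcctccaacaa
Cxcl9, chr5:92328080-92328329, minus strand: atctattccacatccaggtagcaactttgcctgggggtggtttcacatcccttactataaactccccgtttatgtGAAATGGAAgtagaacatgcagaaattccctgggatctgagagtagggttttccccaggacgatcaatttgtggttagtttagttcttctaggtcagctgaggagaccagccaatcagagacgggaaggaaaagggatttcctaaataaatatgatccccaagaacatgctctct
Cxcl10, chr5:92348890-92349139, minus strand: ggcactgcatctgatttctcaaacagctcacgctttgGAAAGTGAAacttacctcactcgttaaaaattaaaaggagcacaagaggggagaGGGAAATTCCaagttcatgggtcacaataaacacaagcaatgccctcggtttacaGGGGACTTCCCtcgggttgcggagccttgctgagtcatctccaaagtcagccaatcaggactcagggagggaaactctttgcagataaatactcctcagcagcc
Cxcl1 and Cxcl2 lie close together on chromosome 5 and both hold the run GGGAATTTCCC, which gives overlapping NF-kB matches on either strand. It ends 60 bases before the start of Cxcl1 and 86 bases before that of Cxcl2. Cxcl10 holds an interferon element core and 3 NF-kB matches, 2 of which overlap. Cxcl9 holds 1 interferon element core and no NF-kB match in this window. Among all 32851 promoter windows of this length, searched on both strands, 7.25% held an NF-kB match and 7.13% held the interferon core. An E2F site, searched as TTTGGCGC, TTTCGCGC, TTTCCCGC or TTTGCCGC on both strands, was present in 1.86% of all windows and in none of the 7 chemokine windows. The 3 windows not printed hold no NF-kB match, and the interferon core occurs in that of Cxcl14 but not in those of Cxcl12 and Cxcl13. These are matches of letters in a short window and say nothing about what binds there.

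The first question was how each chemokine responded to LPS in wild-type liver. At 6 h, 8 of the 10 were called higher and 1 (Cxcl14) lower with limma at an adjusted p of 0.05, while 12.5% of all genes were called higher and 16.0% lower. The median change of the 10 was 5.35, against 0.01 over all genes. At 20 h, 6 were higher and none lower, where 16.5% and 20.0% of all genes were called in those directions, and the median change was 3.89 against -0.02.

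Among the neutrophil-attracting ligands, Cxcl1 was measurable in all arrays. On saline the lowest, median and highest wild-type levels of Cxcl1 were -0.76, 1.54 and 2.76. At 6 h of LPS the 4 arrays read 6.41, 6.27, 5.94 and 6.72. At 20 h the lowest, median and highest were 3.37, 5.52 and 6.45. Every LPS array therefore lay above every saline array, and the arrays at 20 h were more spread than those at 6 h. Cxcl1 was 34.7-fold higher at 6 h (log2 change 5.12 ± 1.30 SE, limma adjusted p = 0.00344) and 14.4-fold higher at 20 h (3.85 ± 1.16, adjusted p = 0.0099). The change between 6 h and 20 h, -1.27 ± 1.30, did not pass (adjusted p = 0.474). With slide as a block the call at 6 h was lost (adjusted p = 0.062, the highest of 12 alternatives, whose lowest was 3.36e-05).

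Cxcl2, a close relative of Cxcl1, was well above background on only 1 of 6 wild-type saline arrays, so the size of its change is not exact. Its saline levels had a lowest, median and highest value of -8.18, -7.04 and -3.54, and the 4 arrays at 6 h read 0.37, 1.84, 0.35 and -1.25. At 20 h they ran from -3.68 to 1.44 around a median of -1.63. Only the lowest array at 20 h, replicate 2, came down to the level of the highest saline array. The log2 change of Cxcl2 was 6.88 ± 1.44 at 6 h (limma adjusted p = 0.00062) and 5.13 ± 1.29 at 20 h (adjusted p = 0.0025). Cxcl5, made largely by epithelial and stromal cells, was also dim on saline: it was well above background on 1 of 6 saline arrays, where it ran from -8.21 to -3.32. It reached -0.04, 1.63, 0.73 and 0.07 at 6 h and -3.08 to 1.24 at 20 h, with no overlap with saline at either time. Its change was 7.14 ± 1.36 at 6 h (limma adjusted p = 0.000243) and 5.85 ± 1.22 at 20 h (adjusted p = 0.000412). The sizes of both genes' changes depended on how low signals were treated, while the calls did not: with normexp background correction Cxcl2 gave 3.15 at 6 h and 1.85 at 20 h, and Cxcl5 gave 3.35 and 2.40. With the authors' deposited table Cxcl2 gave 3.78 and 2.33, and Cxcl5 gave 3.99 and 2.93.

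The interferon-induced ligands Cxcl9, Cxcl10 and Cxcl11 were all higher at 6 h of LPS. Cxcl10 had a lowest, median and highest saline level of -1.08, -0.56 and 2.37 in wild type. The 4 arrays at 6 h read 8.74, 8.91, 8.51 and 8.69 (mean 8.71 ± 0.16 SD, n = 4). At 20 h they ran from 1.61 to 6.26 around 3.79. Cxcl10 was thus tightly clustered at its peak and widely spread later, with 2 of the arrays at 20 h below the highest saline array. It was 455-fold higher at 6 h (8.83 ± 1.28, limma adjusted p = 1.56e-05), 15.3-fold higher at 20 h (3.94 ± 1.15, adjusted p = 0.00796), and fell by 4.89 ± 1.28 between the times (adjusted p = 0.00376). Of all genes, 17.0% were higher and 17.2% lower at 20 h than at 6 h. Of the 10 chemokines, Cxcl14 was higher and Cxcl10 and Cxcl11 were lower.

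Cxcl11 was higher at 6 h than at 20 h, as Cxcl10 was. RefSeq annotates it as a transcribed pseudogene in the C57BL/6J reference, so its transcript level need not stand for a protein. Its saline levels ran from -1.84 to -0.31 around a median of -1.64, and the 4 arrays at 6 h read 4.78, 3.66, 4.44 and 3.83. At 20 h the lowest, median and highest were -1.69, 1.06 and 2.62, which overlaps the saline range. It rose by 5.59 ± 1.14 at 6 h (limma adjusted p = 0.000469). It then fell by 3.38 ± 1.14 between 6 h and 20 h (adjusted p = 0.0216). That fall lost its call with slide as a block (adjusted p = 0.0986), without WT LPS 6 h replicate 1 (0.0593) and without WT LPS 20 h replicate 2 (0.055). The level at 20 h against saline, 2.21 ± 1.02, did not pass with all arrays (adjusted p = 0.0878). It passed without WT LPS 20 h replicate 2 (2.71, adjusted p = 0.0401) and without the pair of knockout libraries that stand apart (adjusted p = 0.00167), which narrows the shared spread.

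Cxcl9 was still far above saline at 20 h. Its wild-type saline arrays read -0.20 to 0.47 apart from replicate 5 at 3.89, the array that was also highest for Cxcl2, Cxcl5, Cxcl10, Cxcl11, Cxcl13 and Cxcl16 and had the highest neutrophil marker sum of its group (26.3). The 4 arrays at 6 h read 7.56, 8.63, 7.99 and 8.15. At 20 h they ran from 6.43 to 8.06 around a median of 7.35. Both LPS groups lay above every saline array. Cxcl9 was 153-fold higher at 6 h (7.25 ± 1.03, limma adjusted p = 1.2e-05) and 90.5-fold higher at 20 h (6.50 ± 0.92, adjusted p = 3.7e-06). The change between the times was -0.75 ± 1.03 (adjusted p = 0.599), against falls of 4.89 in Cxcl10 and 3.38 in Cxcl11; the difference between these genes' time courses was not tested.

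**Figure D2:**
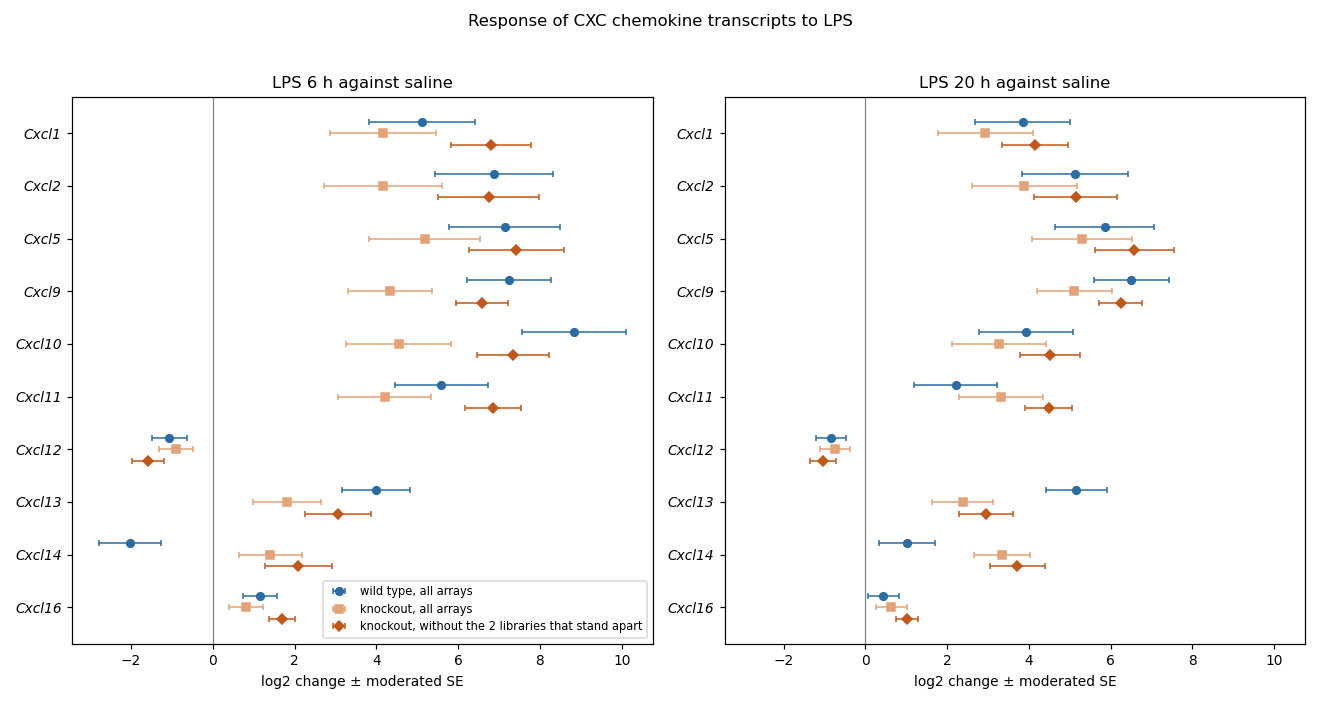
Log2 change of each chemokine at 6 h and 20 h of LPS against saline, with the moderated standard error, in wild type (all arrays) and in knockout mice with and without the 2 libraries that stand apart. In wild type Cxcl10 sits at 8.83 at 6 h and at 3.94 at 20 h, and the knockout changes of most members lie further from 0 without the 2 libraries, as for Cxcl1 with 4.16 and 6.80.

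Cxcl13, the B cell attractant, had a higher mean at 20 h than at 6 h, whereas the other 7 members called higher at 6 h had a lower mean at 20 h. It was well above background on 3 of 6 wild-type saline arrays, where the lowest, median and highest were -5.62, -4.40 and -3.46. The 4 arrays at 6 h read -0.29, -0.89, -0.32 and -0.28, and those at 20 h ran from -1.65 to 2.90 around 0.53. All LPS arrays lay above all saline arrays. The change of Cxcl13 was 3.99 ± 0.83 at 6 h (limma adjusted p = 0.000557) and 5.16 ± 0.74 at 20 h (adjusted p = 4.45e-06), and the step between the times, 1.17 ± 0.83, did not pass (adjusted p = 0.288). With normexp the changes were 2.0 and 3.07, and both calls held. Within the group at 20 h, replicates 2 and 6 had the highest Cxcl13 (2.90 and 2.07) and the lowest Cxcl10 (1.61 and 1.67) and Cxcl1 (3.37 and 3.75). Replicate 1 had the lowest Cxcl13 (-1.65) beside a Cxcl10 of 4.3, where the group median of Cxcl10 was 3.79. A relation between these genes over the arrays was not tested.

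Cxcl12, a constitutive product of stromal and endothelial cells, had lower levels in the LPS groups, by differences that did not pass the test. On saline the wild-type arrays held it between 5.15 and 5.50 around 5.41. The 4 arrays at 6 h read 4.26, 4.35, 4.23 and 4.46, and at 20 h they ran from 4.03 to 5.11 around 4.59. No LPS array reached the lowest saline array. The difference was -1.06 ± 0.42 at 6 h (limma adjusted p = 0.0584) and -0.84 ± 0.37 at 20 h (adjusted p = 0.0784) in the fit where all 32 arrays share 1 spread. The adjusted p at 6 h ranged from 0.000217, with only the compared groups in the fit, to 0.383 over the 12 alternatives, and 7 of these passed. A second Cxcl12 probe, which reads transcript NM_021704 where the first reads NM_001012477, gave -1.46 ± 0.61 at 6 h (adjusted p = 0.0721) and -2.18 ± 0.54 at 20 h, which passed (adjusted p = 0.0023).

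Cxcl16, the membrane-anchored ligand, was 2.24-fold higher at 6 h (1.16 ± 0.42, limma adjusted p = 0.0386), with saline arrays from -0.69 to -0.17 and the 4 arrays at 6 h at 0.51, 1.16, 0.49 and 0.87. This call was near the threshold: it was lost in 4 of 12 alternatives (median centring, no filter, slide block and replicate block, the highest adjusted p being 0.0965) and on leaving out any of WT saline replicates 1, 3, 4 and 6 or any of the 4 arrays at 6 h. A second probe gave 1.13 ± 0.32 (adjusted p = 0.00881). At 20 h the first probe read 0.44 ± 0.38 (adjusted p = 0.386). Between 6 h and 20 h the first probe changed by -0.72 ± 0.42, which did not pass (adjusted p = 0.191), and the second fell by 1.35 ± 0.32 (adjusted p = 0.00178).

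Cxcl14, an orphan-like chemokine of epithelia and metabolic tissue, was the only member called lower in wild type at 6 h. Its lowest, median and highest levels on saline were -0.47, 1.24 and 1.91. The arrays at 6 h read -2.18, 0.04, -1.85 and -0.42, and those at 20 h ran from 0.29 to 3.64 around 1.80. Replicates 2 and 4 at 6 h overlapped the saline range, replicates 1 and 3 did not. The level fell by 2.03 ± 0.76 at 6 h (limma adjusted p = 0.0439) and was 3.04 ± 0.76 higher at 20 h than at 6 h (adjusted p = 0.00239). The fall lost its call in 4 of 12 alternatives (highest adjusted p 0.0919). It also lost it without any of WT saline replicates 2, 3, 5 and 6 or WT LPS 6 h replicates 1 and 3 (highest adjusted p 0.155).

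The same comparisons in knockout liver depended on the pair of libraries. With all arrays, 3 chemokines (Cxcl5, Cxcl9 and Cxcl11) were called higher at 6 h of LPS and none lower, against 1.58% and 1.03% of all genes, with a median change of 4.16. Without the pair, 8 were higher and 1 (Cxcl12) lower, against 12.8% and 16.2% of all genes, with a median of 6.67. Leaving out either library alone gave 9 calls. Within the 2 scan dates that hold neither library, Cxcl1 was higher by 6.36 and 7.09, and Cxcl10 by 6.96 and 7.40. Within the date that holds both, the corresponding differences were -2.69 and -2.81.

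Without the pair, the arrays of Cxcl1 ran from -1.97 to 1.18 on saline and read 5.97, 6.76 and 7.03 at 6 h, a change of 6.80 ± 0.98 (limma adjusted p = 5.23e-06). With it, the change was 4.16 ± 1.30 (adjusted p = 0.0673). Cxcl10 rose by 7.35 ± 0.88 without the pair (adjusted p = 3.12e-07) and had a change of 4.55 ± 1.28 with it (adjusted p = 0.0502). Cxcl9 rose either way, by 6.59 ± 0.63 without the pair (limma adjusted p = 8.51e-09) and by 4.33 ± 1.03 with it (adjusted p = 0.0454). Cxcl11 also rose either way, by 6.85 ± 0.68 (adjusted p = 1.74e-08) and 4.20 ± 1.14 (adjusted p = 0.047). Cxcl5 was well above background on none of the 5 other knockout saline arrays. Its level at 6 h was at least 36.9-fold higher without the pair, a bound against the background level of those arrays (limma adjusted p = 1.55e-05). With all arrays the change of Cxcl5 was 5.18 ± 1.36 (adjusted p = 0.0461). Cxcl2 gave 6.75 ± 1.23 (limma adjusted p = 0.000111), Cxcl13 3.06 ± 0.80 (adjusted p = 0.00414), Cxcl16 1.69 ± 0.32 (adjusted p = 0.000181) and Cxcl12 -1.59 ± 0.39 (adjusted p = 0.0025) without the pair. With all arrays these 4 gave 4.16, 1.81, 0.81 and -0.90, and none passed (limma adjusted p = 0.0912, 0.198, 0.269 and 0.21). The 3 calls made with all arrays were near the threshold. Of the 12 alternatives, 6 ended the call of Cxcl5, 5 that of Cxcl9 and 6 that of Cxcl11, among them the replicate block, which left 0 calls. Leaving out single arrays ended the call of Cxcl5 in 25 of 32 cases, of Cxcl9 in 24 and of Cxcl11 in 26.

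At 20 h of LPS in knockout liver, 7 chemokines were higher and none lower with all arrays, where 11.6% and 14.6% of all genes were called, with a median change of 3.29 against -0.09. Without the pair, 9 were higher and Cxcl12 was lower, against 15.9% and 18.8% of all genes. With all arrays the brightest Cxcl12 probe gave -0.75 ± 0.37 and did not pass (limma adjusted p = 0.138). The second Cxcl12 probe gave -2.5 ± 0.54 with all arrays and passed (limma adjusted p = 0.00118). Cxcl9 ran from 6.57 to 8.22 at 20 h around 7.56. It was 34.4-fold higher with all arrays (5.11 ± 0.92, limma adjusted p = 0.000186) and 75.8-fold higher without the pair (6.24 ± 0.52, adjusted p = 1.02e-09), the change of 6.24 being also that without KO saline replicate 1 alone. Cxcl11 held a level of 1.39 to 3.63 around 2.60, a change of 3.32 ± 1.02 (limma adjusted p = 0.0158) with all arrays and 4.48 ± 0.57 (adjusted p = 9.61e-07) without the pair. Cxcl14 rose by 3.34 ± 0.68 (limma adjusted p = 0.000601), and by 3.72 ± 0.68 without the pair (adjusted p = 0.000133). Cxcl5 gave 5.29 ± 1.22 with all arrays (limma adjusted p = 0.00185), where KO saline replicate 1 read 0.86 and the other 5 saline arrays -7.99 to -5.91. None of those 5 was well above background, so without the pair Cxcl5 was at least 20.5-fold higher (adjusted p = 7.45e-06). With normexp and all arrays the change was 2.49. Cxcl13 rose by 2.38 ± 0.74 (limma adjusted p = 0.0178) and by 2.96 ± 0.66 without the pair (adjusted p = 0.00101); with all arrays its call was lost when only the groups compared entered the fit (adjusted p = 0.0584).

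Cxcl2 and Cxcl10 lay nearer the threshold at 20 h in the knockout. The change of Cxcl2 was 3.89 ± 1.29 with all arrays (limma adjusted p = 0.0256) and 5.14 ± 1.02 without the pair (adjusted p = 0.000309). That of Cxcl10 was 3.26 ± 1.15 (limma adjusted p = 0.0354) and 4.52 ± 0.73 (adjusted p = 2.7e-05). With all arrays Cxcl2 lost its call with normexp (adjusted p = 0.109), with the deposited table (0.065) and with only the groups compared (0.0878), and also without any of KO saline replicates 2, 3, 5 and 6 or without KO LPS 20 h replicate 6. Cxcl10 lost it with slide as a block (limma adjusted p = 0.0628), with the replicate block (0.0508), with no filter (0.0513) and with only the groups compared (0.0805), and also without any of KO saline replicates 2 to 6 or any of KO LPS 20 h replicates 1, 3, 5 and 6. Cxcl1, at 2.93 ± 1.16, did not pass (limma adjusted p = 0.0609). It passed without KO saline replicate 1 (0.00178), KO LPS 6 h replicate 1 (0.037) or KO LPS 20 h replicate 4 (0.0392), and with 3 of 12 alternatives.

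Between 6 h and 20 h in knockout liver, no chemokine was called with all arrays, where 7.22% of all genes were higher and 8.32% lower. At an unadjusted p of 0.05 there was 1 of the 10, against 28.9% of all genes. Without the pair, Cxcl1 fell by 2.65 ± 0.95 (limma adjusted p = 0.0444), Cxcl10 by 2.82 ± 0.85 (adjusted p = 0.0168) and Cxcl11 by 2.37 ± 0.66 (adjusted p = 0.0102). The share of all genes called was then 11.5% higher and 10.8% lower. Cxcl14, at 1.93 ± 0.76 with all arrays (adjusted p = 0.0834), passed without KO LPS 20 h replicate 4 (2.43, adjusted p = 0.0165).

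The comparison the series is built on sets knockout against wild-type liver. On saline, 1 of the 10 chemokines was called, against 0.338% of all genes with all arrays and 0.364% without the pair, where again 1 was called. At 6 h of LPS none was called with limma, against 1.26% of all genes, and 1.33% without the pair. At an unadjusted p of 0.05 there were 0 of the 10, against 11.0% of all genes, and again 0 without the pair, against 13.2%. At 20 h none was called either with limma, against 0.322% of all genes, and 0 of the 10 were at an unadjusted p of 0.05, against 7.52%. Without the pair again none was called at 20 h (1, Cxcl11, at an unadjusted p of 0.05, where 9.61% of all genes were; 0.520% of all genes were called). The largest difference at 20 h was that of Cxcl11, at 1.79 ± 1.02 with all arrays (limma adjusted p = 0.763) and 1.79 ± 0.54 without the pair (adjusted p = 0.165).

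The called gene on saline was Cxcl14. Its wild-type saline arrays had a lowest, median and highest level of -0.47, 1.24 and 1.91, and the knockout arrays of -3.51, -2.84 and -0.64. The highest knockout array, the library labelled KO saline replicate 1, still lay below the lowest wild-type array, and the other 5 did not exceed -2.11. Cxcl14 was 10.8-fold lower in the knockout (-3.44 ± 0.68, limma adjusted p = 0.0132) and 14.1-fold lower without the pair (-3.81 ± 0.68, adjusted p = 0.00602). Scan dates 1 and 2, each with arrays of both genotypes on saline, gave differences of -3.93 and -3.88. Over 12 alternatives the adjusted p ranged from 0.00602 to 0.0506, the latter with slide as a block (-3.65), where the call was lost. On leaving out each array in turn it ranged from 0.00538 to 0.0488. After LPS the groups overlapped: the difference was 0.00 ± 0.83 at 6 h and -1.11 ± 0.68 at 20 h (limma adjusted p = 0.795).

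**Figure D3:**
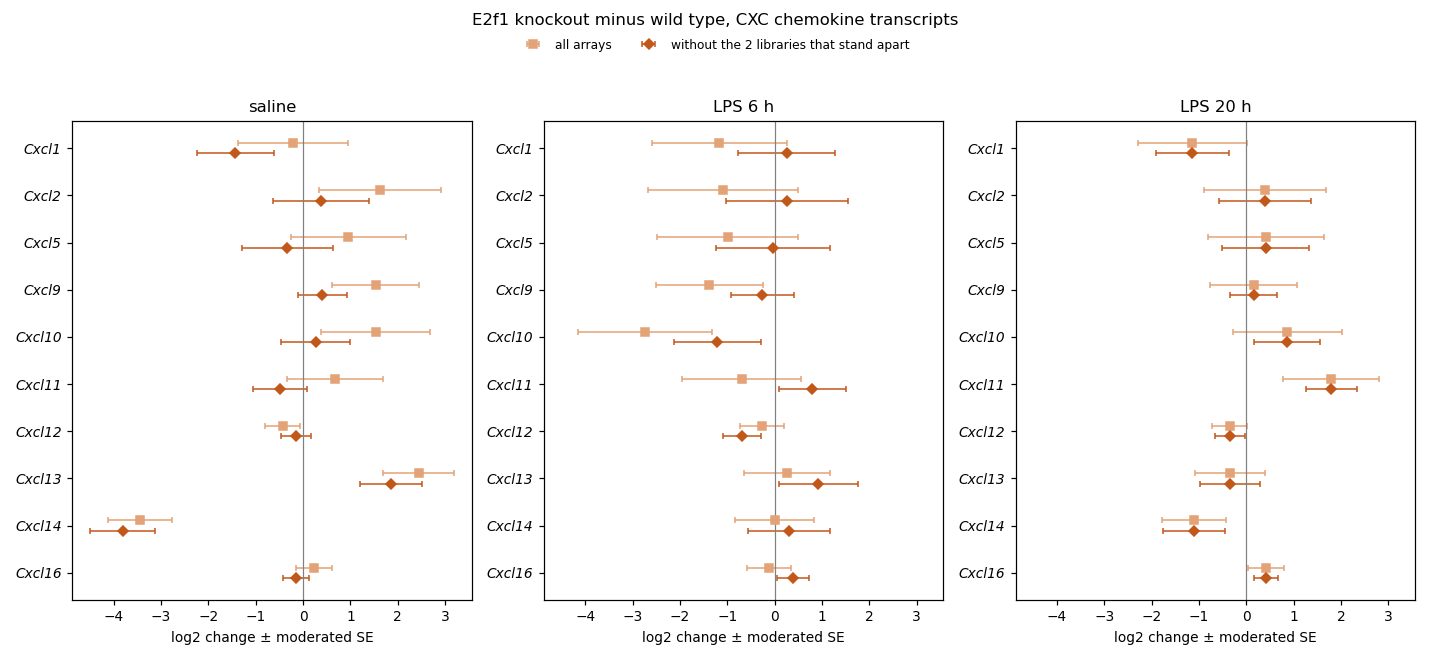
Knockout minus wild type for each chemokine on saline, at 6 h and at 20 h of LPS (log2 difference with the moderated standard error), with all arrays and without the 2 libraries that stand apart. Cxcl14 on saline, at -3.44 and -3.81, is the 1 difference that passed; Cxcl9 at 6 h sits at -1.38 with all arrays and at -0.26 without the 2 libraries.

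The other large difference on saline was that of Cxcl13, which did not pass. It ran from -5.62 to -3.46 in wild type and from -3.11 to 0.92 in the knockout, or to -1.98 without the library that stands apart, so the groups did not overlap. The difference was 2.44 ± 0.74 (limma adjusted p = 0.239), and 1.86 ± 0.66 without the pair, which did not pass either. Within scan dates 1 and 2 it was 2.0 and 1.41. The remaining differences on saline ranged from -0.43 in Cxcl12 to 1.63 in Cxcl2 with all arrays.

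Whether the response to LPS itself differed by genotype was tested as an interaction. None of the 10 passed with limma at 6 h or at 20 h, where 0.125% and 0.0416% of all genes were called. At an unadjusted p of 0.05 there were 2 of the 10 at each time, against 8.82% and 6.60% of all genes. Without the pair none passed either (background 0.151% and 0.0571%), and 1 and 3 of the 10 were at an unadjusted p of 0.05, against 9.20% and 7.46% of all genes. The interaction of Cxcl14 at 6 h was 3.44 ± 1.07 (limma adjusted p = 0.237), and 4.12 ± 1.1 without the pair (adjusted p = 0.144). In wild type its change at 6 h was -2.03, in the knockout 1.41 with all arrays and 2.09 without the pair (adjusted p = 0.286 and 0.0579). For Cxcl10 the interaction at 6 h was -4.28 ± 1.82 with all arrays (adjusted p = 0.462) and -1.48 ± 1.17 without the pair (adjusted p = 0.754). For Cxcl13 at 20 h it was -2.79 ± 1.05 (adjusted p = 0.594) and -2.20 ± 0.91 (adjusted p = 0.539). For Cxcl11 at 20 h it was 1.11 ± 1.44 with all arrays and 2.27 ± 0.78 without the pair (adjusted p = 0.959 and 0.395).

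The receptors and the other ligands of the family were taken from a list. Of 8 receptors on it, 7 were measured. At 6 h in wild type 4 of them were higher and 1 lower, with a median change of 1.97, where 12.5% of all genes were higher and 16.0% lower. At 20 h 3 were higher and none lower, against 16.5% and 20.0% of all genes. Il8rb, the older name of Cxcr2 and the receptor of Cxcl1, Cxcl2 and Cxcl5, was not well above background on any wild-type saline array. It was at least 5.16-fold higher at 6 h (limma adjusted p = 0.000521) and at least 1.85-fold higher at 20 h (adjusted p = 0.00759). Darc, now Ackr1, a receptor of venules and red cells that binds but does not signal, ran from -2.66 to -1.15 on saline and from 2.03 to 3.23 at 6 h. It rose by 4.24 ± 0.70 at 6 h (limma adjusted p = 5.49e-05) and by 2.92 ± 0.62 at 20 h (adjusted p = 0.00056). Cxcr7, now Ackr3, the scavenging receptor of Cxcl12 and Cxcl11, rose by 2.04 ± 0.56 at 6 h (limma adjusted p = 0.00661) and 1.32 ± 0.50 at 20 h (adjusted p = 0.0391).

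Cxcr3, the receptor of Cxcl9, Cxcl10 and Cxcl11, was the receptor that fell. It ran from -3.18 to -2.44 in wild-type saline and from -6.40 to -4.68 at 6 h, where 1 of 4 arrays was well above background. The change was -2.81 ± 0.68 at 6 h (limma adjusted p = 0.00221) and -1.48 ± 0.60 at 20 h (adjusted p = 0.0554, and 0.0152 without the pair). Cxcr5, the receptor of Cxcl13, rose by 1.97 ± 0.50 at 6 h (limma adjusted p = 0.00371) and was 2.62 ± 0.50 lower at 20 h than at 6 h (adjusted p = 0.000186), where the change of Cxcl13 was 1.17 and did not pass. Cxcr5 was well above background on only 3 of 6 wild-type saline arrays, 3 of 4 at 6 h and 2 of 6 at 20 h. The sizes of its changes are therefore not exact. Cxcr4 was dim: it was well above background on none of the wild-type arrays on saline or at 6 h and on all 6 at 20 h. Against saline it was then at least 1.6-fold higher, a difference that did not pass (limma adjusted p = 0.0579). Cxcr6, the receptor of Cxcl16, had changes of -0.19 ± 0.38 and -0.59 ± 0.34 in wild type (adjusted p = 0.751 and 0.174). No receptor was called between genotypes on saline or after LPS, with or without the pair. The shares of all genes on saline, at 6 h and at 20 h were 0.338%, 1.26% and 0.322% with all arrays. Without the pair they were 0.364%, 1.33% and 0.520%, so no call would be usual among so few genes.

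In the knockout at 6 h, 1 receptor (Il8rb) was higher with all arrays, against 1.58% of all genes. Without the pair, 4 were higher and 2 lower, against 12.8% and 16.2%, and Il8rb was at least 14.3-fold higher (limma adjusted p = 1.35e-08). Darc then rose by 3.91 ± 0.44 (adjusted p = 1.38e-07), and Cxcr3 fell by 2.74 ± 0.61 (adjusted p = 0.000973). At 20 h in the knockout 3 receptors (Il8rb, Darc and Cxcr4) were higher and Cxcr6 was lower (-0.94 ± 0.34, limma adjusted p = 0.0386), against 11.6% and 14.6% of all genes. Without the pair Il8rb, Darc and Cxcr7 were higher and Cxcr3 (-1.45 ± 0.50, adjusted p = 0.0267) and Cxcr6 (-0.92 ± 0.35, adjusted p = 0.043) lower, against 15.9% and 18.8%, while Cxcr4 did not pass (adjusted p = 0.0567).

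**Figure D4:**
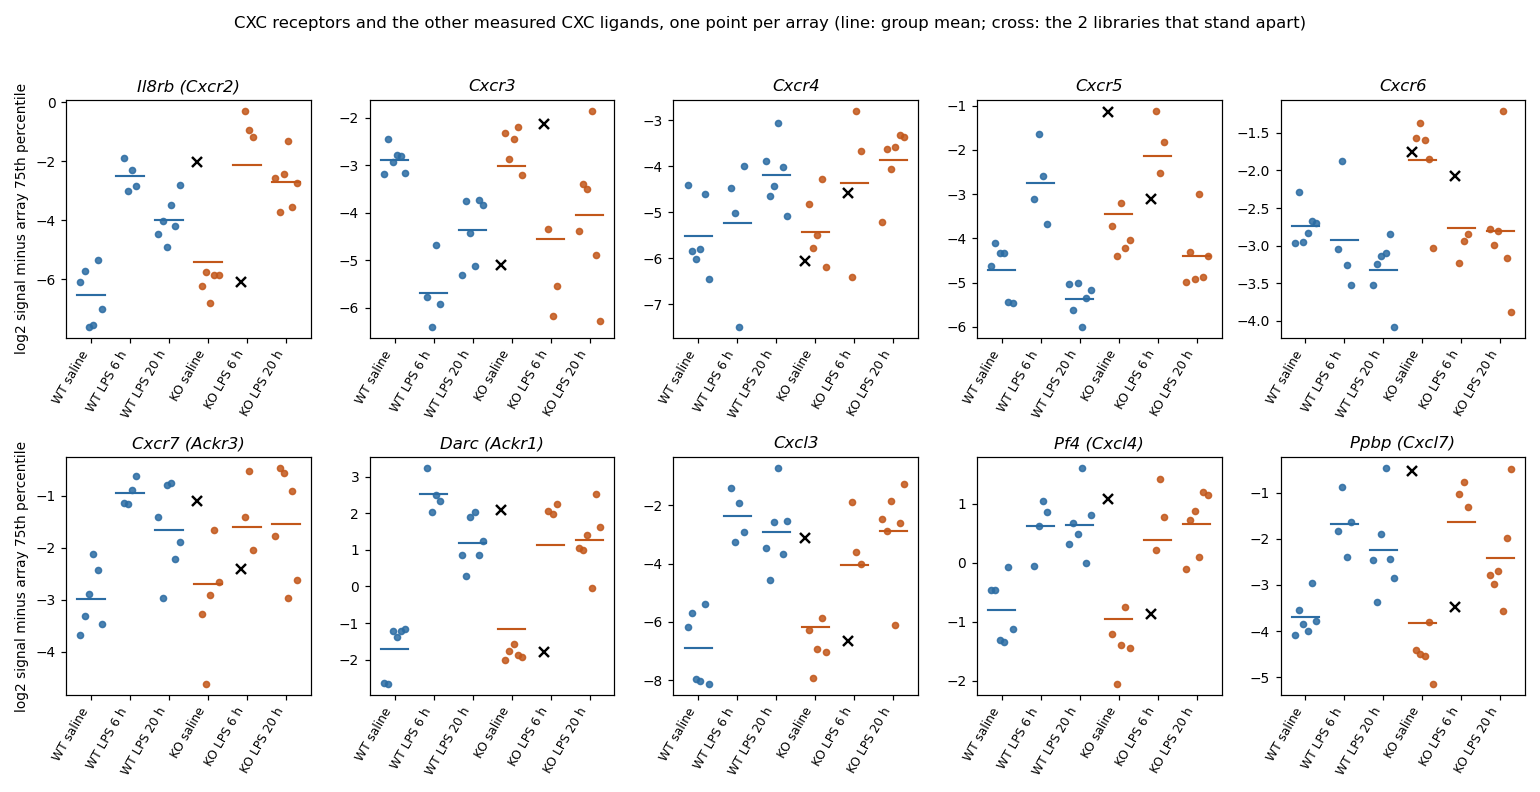
Level of the 7 measured receptors and 3 further CXC ligands in each array (log2 signal minus the array's 75th percentile); points are arrays, lines group means and crosses the 2 libraries that stand apart. Darc runs from -2.66 to -1.15 in wild-type saline and from 2.03 to 3.23 at 6 h, whereas Cxcr3 runs from -3.18 to -2.44 and from -6.40 to -4.68.

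Of 5 further CXC ligands on the list, 3 were measured, and all 3 rose in wild type at 6 h. Cxcl3, a relative of Cxcl2, was at least 5.66-fold higher at 6 h (limma adjusted p = 0.000464) and at least 3.88-fold higher at 20 h (adjusted p = 0.000389). Pf4, the platelet protein Cxcl4, rose by 1.41 ± 0.46 at 6 h (limma adjusted p = 0.0199) and by 1.44 ± 0.41 at 20 h (adjusted p = 0.0064). Ppbp, the platelet precursor of Cxcl7, rose by 2.02 ± 0.68 at 6 h (adjusted p = 0.0245).

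The lists of pathway genes around the chemokines are set here against the shares of all genes called in wild type, 12.5% higher and 16.0% lower at 6 h and 16.5% and 20.0% at 20 h. All 19 measured genes of the NF-kB, TNF and IL-1 list were higher at 6 h (median 3.29) and 15 at 20 h, with Tnf at 5.45 ± 0.95 (limma adjusted p = 9.98e-05) and Tnfaip3, a feedback inhibitor, at 6.18 ± 1.13 (adjusted p = 0.000152) at 6 h. Of 17 measured genes of the interferon list, 11 were higher and 1 lower at 6 h (median 1.20). The 11 higher lay above the share of all genes, and the 1 lower below it. At 20 h 4 were higher and 1 lower, counts near or below the shares of all genes. Ifng, the inducer of Cxcl9, gave 6.95 ± 1.56 at 6 h (limma adjusted p = 0.00119) and 3.78 ± 1.4 at 20 h (adjusted p = 0.0334). Between the times 7 of the 17 were lower and 1 higher, against 17.2% and 17.0% of all genes. Of 9 genes whose products cut or shed chemokines, 3 were higher and 1 lower at 6 h. At 20 h Mmp9, which trims ligands of Cxcr2, was 4.60 ± 0.64 higher (limma adjusted p = 3.14e-06), and Dpp4, which inactivates Cxcl10, had a change of -2.40 ± 0.23 (adjusted p = 3.2e-08). In the knockout at 6 h, 3 genes of the NF-kB list were higher with all arrays and 18 without the pair, and of the interferon list 3 and 11 were higher, where 1.58% and 12.8% of all genes were. No gene of the NF-kB or interferon lists was called between genotypes at any of the 3 conditions. Of all genes, 0.338% were called on saline, 1.26% at 6 h and 0.322% at 20 h with all arrays. At such shares few or none would be called in lists of this length.

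In wild type the summed markers of neutrophils and of T and natural killer cells were higher in every LPS array than in any saline array, those of B cells were lower at 20 h, and their part in the chemokine results was not tested. The lists share Il8rb, Mmp8 and Mmp9 (neutrophil), Cxcr3 (T and natural killer cell) and Cxcr5 (B cell) with the lists above. The sums are of linear signals, so bright markers weigh most. The 15 measured neutrophil markers summed to 3.58 to 26.3 times the 75th percentile in wild-type saline arrays, 192 to 273 at 6 h and 271 to 450 at 20 h. Of these, 14 were called higher at 6 h and 13 at 20 h, against 12.5% and 16.5% of all genes. Lcn2 had the largest called change of that list in wild type, 7.5 ± 1.29 at 6 h and 8.06 ± 1.16 at 20 h. In the knockout the neutrophil sums were 333 to 1130 at 20 h. The 13 T and natural killer cell markers summed to 1.14 to 1.75 on saline, 2.92 to 7.25 at 6 h and 4.66 to 14.5 at 20 h in wild type. Of these, Trat1 changed by 8.76 ± 0.82 at 20 h, and Cxcr3 by -2.81 ± 0.68 at 6 h. The 6 B cell markers summed to 0.628 to 1.36 on saline, 0.687 to 1.38 at 6 h and 0.255 to 0.383 at 20 h, when Cxcl13 was highest. The Kupffer cell markers (10 measured) summed to 55.3 to 80.5 on saline, 30.4 to 87 at 6 h and 17.9 to 66.0 at 20 h in wild type. At 20 h 9 of them were lower and 1 higher, against 20.0% and 16.5% of all genes. In the knockout, with all arrays, the Kupffer cell sums ran from 48.9 to 101 on saline (median 78.3) and from 29.5 to 244 at 20 h (median 76.1). A difference between genotypes in these sums was not tested. Endothelial markers (10 measured) summed to 33.0 to 54.0, 21.7 to 37.8 and 15.0 to 32.1 in wild type (saline, 6 h, 20 h). Stellate cell markers (10 measured) summed to 55.4 to 115, 88.7 to 136 and 71.4 to 141, and cholangiocyte markers (5 measured) to 6.84 to 19.5, 12.5 to 26.6 and 24.5 to 57.6. Single markers of these lists did not all follow the sums. The largest called stellate changes were -3.81 in Colec11, -2.95 in Ngfr and -2.11 in Lrat at 20 h. At 6 h they were -1.46 in Pdgfrb and 0.78 in Dcn. Of the cholangiocyte markers at 20 h, Krt7 changed by -1.39, Sox9 by 2.82 and Spp1 by 1.65. The 3 measured lung markers of 6 on their list were dim but also higher after LPS, with sums of 0.069 to 0.282, 0.228 to 1.14 and 0.503 to 2.44 in wild type and of 2.32 in the library labelled KO saline replicate 1. Of these, Sftpa1 was 4.52 ± 0.58 higher (limma adjusted p = 1.13e-06) and Sftpd 3.08 ± 0.67 higher (adjusted p = 0.000633) at 20 h in wild type, and their part in the chemokine results was not tested. In KO LPS 20 h replicate 4 the Kupffer cell markers summed to 244 (others 29.5 to 97.9) and the B cell markers to 1.86 (others 0.383 to 0.603).

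**Figure D5:**
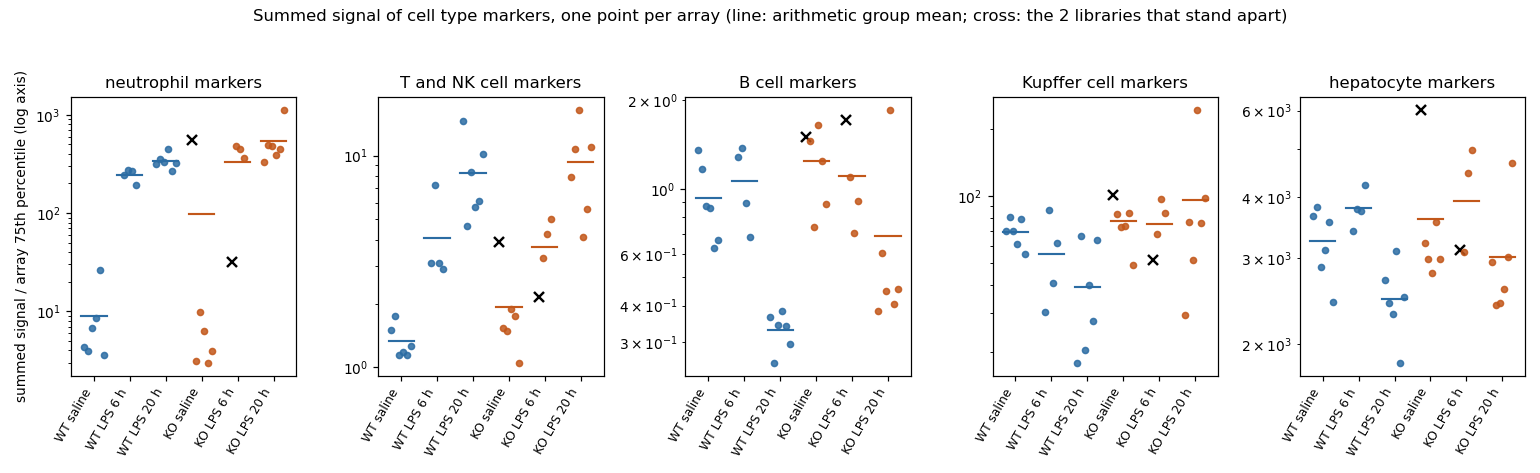
Summed signal of 5 marker lists in each array, as a multiple of the array's 75th percentile on a log axis; points are arrays, lines arithmetic group means and crosses the 2 libraries that stand apart. Neutrophil markers run from 3.58 to 26.3 in wild-type saline arrays and from 192 to 273 at 6 h, and the cross among the knockout saline arrays sits at 555.

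The genes whose pattern of group means relative to wild-type saline was nearest to each chemokine were as follows. They were taken out of all genes tested apart from those with clone names. The measure is the mean absolute difference over 5 groups. Socs3 was nearest to Cxcl1 (0.33), Ccl5 to Cxcl2 (0.21), Ccl2 to Cxcl5 (0.15) and Serpina3f to Cxcl9 (0.35). Gpr109a and Gbp5 were nearest to Cxcl10 (0.44 each), and Slamf7 and Isg15 to Cxcl11 (0.34 and 0.35). Sept9 was nearest to Cxcl12 (0.10), Cdkn1a to Cxcl13 (0.44) and Jmjd3 to Cxcl16 (0.07). The nearest to Cxcl14 was Fzd6 at 0.65, the widest gap of the 10. These group means include the pair of libraries that stand apart.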

How the data were processed

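RNA of 32 samples was hybridised to 1-colour (Cy3) Agilent mouse arrays. Each array's deposited scanner output gives a processed intensity, which Feature Extraction had background-subtracted and detrended, with surrogates for low signals, per the file headers. The authors' deposited value table holds log2 values of 23916 probes, with column medians of 8.80 to 8.91, correlations of 0.980 to 0.991 with log2 scanner signals of its own array and slopes of 0.766 to 0.860. Its normalization is not stated, and it served as an alternative.

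Control spots and outlier spots (84 to 232 per array) were left out. Log2 signals minus the array's 75th percentile were averaged per probe (41174 probes). A probe was used if 4 or more arrays showed it well above background (28407 probes), and each of 19248 gene names was read from its brightest probe. Group means over all 32 arrays were fitted with limma 3.58.1 (lmFit, eBayes) in R 4.3.3, two-sided, and p-values were adjusted by Benjamini and Hochberg's method within each of 11 comparisons, with calls at 0.05. A fold against a group below background on all its arrays is a lower bound, set against that group's background level. The code was tested on simulated data. Gene names are those of the array design, whose probe positions are on mm9; promoters are RefSeq GRCm38.p6, and the builds were not mixed.

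The labels do not state that samples are separate animals, so p-values measure the spread between samples. There were 9 slides and 3 scan dates, the third without wild-type saline samples. Same-numbered samples did not deviate together (72 pairs, correlations of deviations from -0.684 to 0.34, median 0.0123), so replicate number is an alternative block. Other alternatives were quantile and median scaling, normexp, the deposited table, other filters and probe rules, slide or scan date as a block, only the compared groups in the fit, and leaving out the pair of libraries or each array in turn. The number of arrays limits the precision.

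The members, gene lists and alternatives, and the pair of libraries to leave out, were chosen with earlier results of these data known. All 10 members are named. The receptors and other CXC ligands that were measured are named in full. From other lists at most 3 called genes with the largest change in wild type at 6 h or 20 h, and for each member the nearest 2 genes by pattern, could be named.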

Additional observations from a re-analysis of the deposited data

Results flagged for a closer look

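Of 60 sets of a member in a group, 14 held an array far from the others by Dixon's criterion, where chance gives about 1 in 20 for a single set. The members were read on the same 32 arrays, so the sets are not independent, and 1 unusual array can be flagged for several members. Of the 14, 10 belong to the pair of libraries that stand apart. In the library labelled KO saline replicate 1 these were Cxcl1 (7.10, others -1.97 to 1.18), Cxcl5 (0.86, others -7.99 to -5.91), Cxcl9 (8.06, others -0.53 to 1.84), Cxcl10 (7.75, others -1.23 to 0.77), Cxcl11 (5.07, others -2.30 to -1.55), Cxcl12 (3.55, others 4.92 to 5.46), Cxcl13 (0.92, others -3.11 to -1.98) and Cxcl16 (1.72, others -0.90 to -0.18). In the library labelled KO LPS 6 h replicate 1 they were Cxcl2 (-4.79, others 0.14 to 0.82) and Cxcl9 (3.33, others 7.56 to 7.95).

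WT saline replicate 5 was far above its group for Cxcl9 (3.89, others -0.20 to 0.47) and Cxcl10 (2.37, others -1.08 to -0.07). WT LPS 6 h replicate 2 was lower for Cxcl13 (-0.89, others -0.32 to -0.28), a gap within a narrow group. KO LPS 20 h replicate 4 was higher for Cxcl16 (1.76, others -0.13 to 0.55). The same array had the highest sums of its group for the Kupffer cell markers (244, others 29.5 to 97.9) and the B cell markers (1.86, others 0.383 to 0.603); their part in the value was not tested.

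The estimated change of Cxcl14 at 6 h of LPS was -2.03 in wild type and 1.41 in the knockout with all arrays, the latter not called (limma adjusted p = 0.286). The interaction of 3.44 did not pass (limma adjusted p = 0.237). Knockout minus wild type was -3.44 on saline and 0 at 6 h, so the interaction is the saline difference with its sign turned.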

How the results depend on the processing

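Over the alternatives tried, no member's change reversed its direction past the threshold. Counts of members called moved most in knockout liver. At 6 h of LPS against saline there, 3 were called with all arrays and 0 with normexp, with no filter, with slide as a block, with the replicate block and with only the groups compared, against 9 without the pair of libraries; leaving out 1 array at a time gave 0 to 9. At 20 h against saline 7 were called, and 4 with only the groups compared. Between 6 h and 20 h 0 were called, 3 without the pair, and 0 to 1 on leaving out 1 array. Of knockout against wild type on saline, 1 was called and 0 with slide as a block. The cause of these shifts was not tested. The replicate block left the count of every other comparison within 1.5 times. Of 110 member changes, 9 lost a call with slide as a block, 6 with the replicate block and 16 gained one without the pair. Of Cxcl2, dim on saline, the change at 20 h in the knockout was 1.58 with normexp in place of 3.89. Median centring moved the median of all genes by over 0.1 in several comparisons, to -0.14 from 0.01 at 6 h of LPS in wild type and to -0.14 from -0.01 between genotypes on saline. Over all genes, knockout at 6 h of LPS against saline gave 502 calls, and 280 with quantile scaling, 1 with normexp, 2 with no filter, 1 with the replicate block, 0 with slide as a block or with only the groups compared, and 5597 without the pair. Knockout at 20 h against saline gave 5049 and, with only the groups compared, 3065; against 6 h it gave 2991 and 312. Knockout against wild type gave 65 on saline and 39 with slide as a block. At 6 h it gave 242, and 116 with no filter, 62 with slide as a block and 7 with only the groups compared; at 20 h it gave 62, and 28, 25 and 100 with slide as a block, only the groups compared and without the pair. The interaction at 6 h gave 24, and 12 with the deposited table, 7 with slide as a block and 38 with scan date as a block; at 20 h it gave 8, and 1 to 5 in 6 alternatives. The number of arrays limits the precision.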
